A study of Homo sapiens with 6 samples.

Results

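Aminoacyl-tRNA synthetases were followed on arrays of tunicamycin (TM)-treated oral cancer cells as 39 listed genes. They are 19 enzymes that work in the cytosol, 16 mitochondrial enzymes whose symbols end in 2 (such as AARS2), and 4 partner factors (AIMP1, AIMP2, EEF1E1 and XPOT). Members were found by gene symbol in the annotation of the array, with older symbols such as AARS accepted. Where several clusters carried a symbol, the 1 whose mean over the 6 arrays was highest stood for the gene. By this rule 37 of the 39 genes were measured among 67528 clusters, of which 23781 carry a single symbol. All 35 synthetase genes were among the 37. No array values of AIMP2 and EEF1E1 were analysed here, and only their promoters were read.

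RNA was from SCC25, a line grown from a human squamous carcinoma of the tongue, on 3 arrays of cells given TM at 5 µg/mL for 6 h and 3 control arrays of cells given the vehicle, DMSO at 0.1%. TM blocks N-linked glycosylation, so unfolded glycoproteins gather in the endoplasmic reticulum (ER) and set off the unfolded protein response (UPR). It was 1 cell line at 1 dose and 1 time. One label field of the TM samples names SCC28 where the others name SCC25. The series text calls the replicates independent biological ones, while the statistics section of the paper speaks in general of 1 representative of 3 experiments. The p-values therefore measure the spread between these arrays, which may be partly technical. Markers of squamous keratinocytes (8 of 12 measured) had a mean log2 value of 11.50 to 11.56 on every array. Markers of fibroblasts, leukocytes and endothelium (12 of 14 measured) averaged 5.40, 5.44 and 5.44 in TM 1, 2 and 3 and 5.40, 5.34 and 5.34 in control 1, 2 and 3, and their part in the results was not tested. The median of all clusters was 5.49, 5.52 and 5.52 on the TM arrays and 5.44, 5.48 and 5.39 on the control arrays.

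The arrays labelled TM 3 and control 3 stood apart in ER stress genes. Log2 values of DDIT3, the gene for CHOP, a transcription factor of the UPR, were 9.04, 8.88 and 5.86 in TM 1, 2 and 3, against 6.02, 6.01 and 9.28 in control 1, 2 and 3. Those of HSPA5, the gene for BIP, the main chaperone of the ER, were 13.42, 13.31 and 12.27 with TM, against 12.39, 12.27 and 13.51 in control. For both genes TM 3 lay with control 1 and 2, and control 3 lay with TM 1 and 2. Whether the labels of TM 3 and control 3 were exchanged was not tested and cannot be told from the sources used here, so every array was left in the group its label gives. If they were, the fold changes and counts of overlap over all 6 arrays would mix both treatments in each group. Counts and medians of the cytosolic and mitochondrial synthetases are given for all 6 arrays and for replicates 1 and 2 alone. Some single genes and smaller groups are given for only 1 of these sets. Since replicate 3 was set aside for its ER stress genes, a call in the remaining arrays does not stand as independent evidence that TM changed a gene.

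A synthetase joins 1 amino acid to its tRNA, and human cells keep largely separate sets of these enzymes for ribosomes of the cytosol and for ribosomes of the mitochondrion, both encoded in the nucleus. When unfolded proteins activate the kinase PERK, phosphorylation of eIF2α slows translation in general but favours that of ATF4, a transcription factor whose known targets include amino acid transporters, amino acid synthesis enzymes and several cytosolic synthetases. A group of the cytosolic enzymes is held in the multisynthetase complex on the scaffold proteins AIMP1, AIMP2 and EEF1E1 (also called AIMP3), while the rest work outside it.

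In replicates 1 and 2, 4 of 19 cytosolic synthetases rose with TM, 0 fell and 15 did not pass, whereas 0 of 16 mitochondrial synthetases rose and 0 fell. The 4 were AARS1, WARS1, CARS1 and SARS1, which charge tRNA with alanine, tryptophan, cysteine and serine. Calls were made at an adjusted p under 0.05 from limma, adjusted over all clusters, and at this threshold 0.546% of all clusters were higher and 0.675% lower in these 4 arrays. An unadjusted p under 0.05 was reached by 9 of 19 cytosolic genes, 5 of 16 mitochondrial genes and 26.9% of all clusters, so the mitochondrial share was near that of all clusters. With a fold change of at least 1.2 as well, 6 cytosolic genes were higher (the 4 above with FARSA and GARS1) and 0 lower, and 0 mitochondrial genes were taken in either direction, where 6.96% of all clusters were higher and 7.6% lower. The median log2 fold change, TM over control, was 0.0999 over the cytosolic genes, with 13 above 0 and 6 below, and -0.108 over the mitochondrial genes, with 3 above and 13 below. Over all clusters the median was 0.0354. With 1 of these 4 arrays left out, the cytosolic median lay between 0.073 and 0.149, and the mitochondrial median between -0.103 and -0.0806. Such a fit leaves 1 array in a group, so its calls are not counted.

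With all 6 arrays 0 cytosolic and 0 mitochondrial synthetases passed, as did 0 of 67528 clusters (0%), while 1 cytosolic gene, 4 mitochondrial genes and 13824 clusters (20.5%) had an unadjusted p under 0.05. By a looser rule, a fold change of at least 1.2 and an unadjusted p under 0.05, the counts were again 0 in both directions for both sets of enzymes. That rule took 4.24% of all clusters as higher and 1.68% as lower. Median log2 fold changes were 0.000855 over the cytosolic genes, which turned to -0.0703 when each array was centred on its median, and -0.0613 over the mitochondrial genes, against 0.0373 over all clusters.

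**Figure D1:**
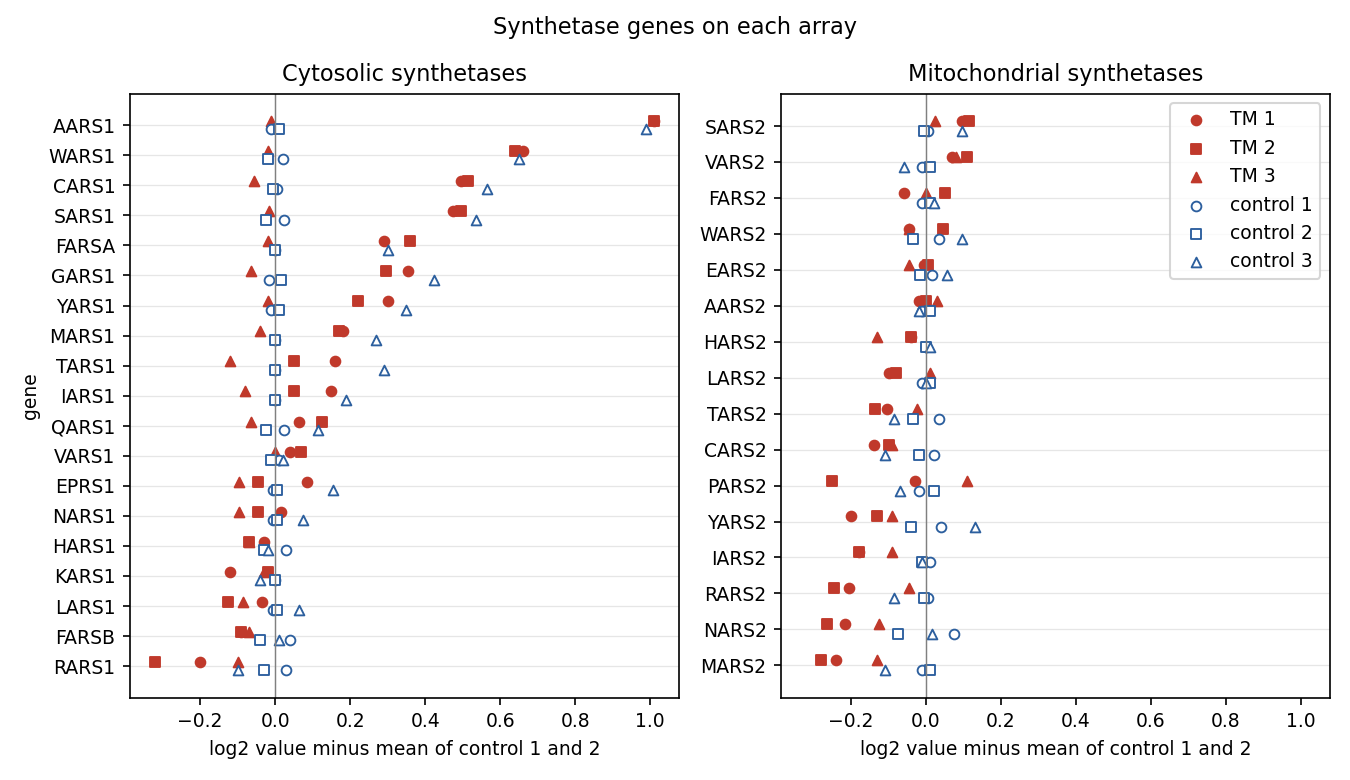
Log2 value of each synthetase gene on each array minus the mean of control 1 and 2 of that gene (x axis), with cytosolic genes on the left and mitochondrial genes on the right, TM as filled red and control as open blue marks, and replicates 1, 2 and 3 as circles, squares and triangles. For AARS1, WARS1, CARS1 and SARS1 the triangle of TM 3 sits at the control circles and squares, and that of control 3 sits at the TM circles and squares.

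AARS1, the alanyl-tRNA synthetase, had the largest change of all members in replicates 1 and 2. It was at 11.80, 11.80 and 10.78 in TM 1, 2 and 3, against 10.78, 10.80 and 11.78 in control 1, 2 and 3. TM 1, TM 2 and control 3 were about 1 log2 unit above the other 3 arrays, so the labelled groups overlapped. In replicates 1 and 2 the log2 fold change was 1.01 (standard error 0.06, a 2.02-fold rise, adjusted p = 0.0127 from limma), and with all 6 arrays it was 0.34 (standard error 0.36, adjusted p = 0.615 from limma).

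WARS1, the tryptophanyl-tRNA synthetase, read 10.57, 10.55 and 9.89 on the TM arrays and 9.93, 9.89 and 10.56 on the control arrays. CARS1, the cysteinyl-tRNA synthetase, read 8.55, 8.57 and 8.00 with TM and 8.06, 8.05 and 8.62 in control. SARS1, the seryl-tRNA synthetase, read 11.00, 11.02 and 10.51 with TM and 10.55, 10.50 and 11.06 in control. All 3 genes had the same split as AARS1, with TM 1, TM 2 and control 3 high, and the labelled groups overlapped. Their log2 fold changes in replicates 1 and 2 were 0.65 for WARS1 (1.56-fold, adjusted p = 0.0285 from limma), 0.50 for CARS1 (1.42-fold, adjusted p = 0.0382 from limma) and 0.48 for SARS1 (1.40-fold, adjusted p = 0.0435 from limma), each with a standard error of 0.06. With all 6 arrays they were 0.21, 0.13 and 0.14 in that order of genes, with adjusted p of 0.643, 0.746 and 0.704 from limma.

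GARS1 and FARSA came next and did not pass in replicates 1 and 2. GARS1, the glycyl-tRNA synthetase, whose gene also supplies the mitochondrial enzyme, was at 11.03, 10.97 and 10.61 with TM and at 10.66, 10.69 and 11.10 in control. The change of GARS1 in replicates 1 and 2 was 0.32 on the log2 scale (limma, standard error 0.06, adjusted p = 0.068), and 0.05 over all 6 arrays. FARSA, the α subunit of the cytosolic phenylalanyl-tRNA synthetase, was at 10.97, 11.04 and 10.66 with TM and at 10.68, 10.68 and 10.98 in control. The change of FARSA in replicates 1 and 2 was 0.32 on the log2 scale (limma, standard error 0.06, adjusted p = 0.0684), and 0.11 over all 6 arrays. In both genes TM 1, TM 2 and control 3 were again the 3 highest arrays. FARSB, the β subunit of that enzyme, was at 10.21, 10.21 and 10.23 with TM and at 10.34, 10.26 and 10.31 in control. All 3 TM arrays of FARSB lay below the controls, by a log2 fold change of -0.09 (adjusted p = 0.419 from limma in replicates 1 and 2). The estimates for the 2 subunits of 1 enzyme differed in sign, but neither passed, and that of FARSB had a standard error of 0.06. After quantile normalization TM lay below control in 0 cytosolic genes, so FARSB did not keep this order of arrays. The split of replicate 3 was not seen in FARSB. KARS1, the lysyl-tRNA synthetase and the other gene that serves both compartments, was at 10.13, 10.23 and 10.22 with TM and at 10.25, 10.25 and 10.21 in control, with overlapping groups and a log2 fold change of -0.07.

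The split of replicate 3 ran through the cytosolic genes whose TM 1 and 2 were higher. Of the 9 cytosolic genes higher in TM 1 and 2 by over 0.1, all 9 had control 3 nearer to TM 1 and 2 and all 9 had TM 3 nearer to control 1 and 2. The 1 mitochondrial gene higher by over 0.1, SARS2, had this split too. In the 1 cytosolic gene lower by over 0.1, RARS1, both TM 3 and control 3 were nearer to control 1 and 2. Whether the split goes with compartment or with direction of change was not tested. Mitochondrial genes that were lower in TM 1 and 2 did not follow one side. Of the 8 that were lower in TM 1 and 2 by over 0.1, control 3 was nearer to the controls in 5 and nearer to TM in 3, and TM 3 was nearer to TM in 4 and nearer to the controls in 4.

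**Figure D2:**
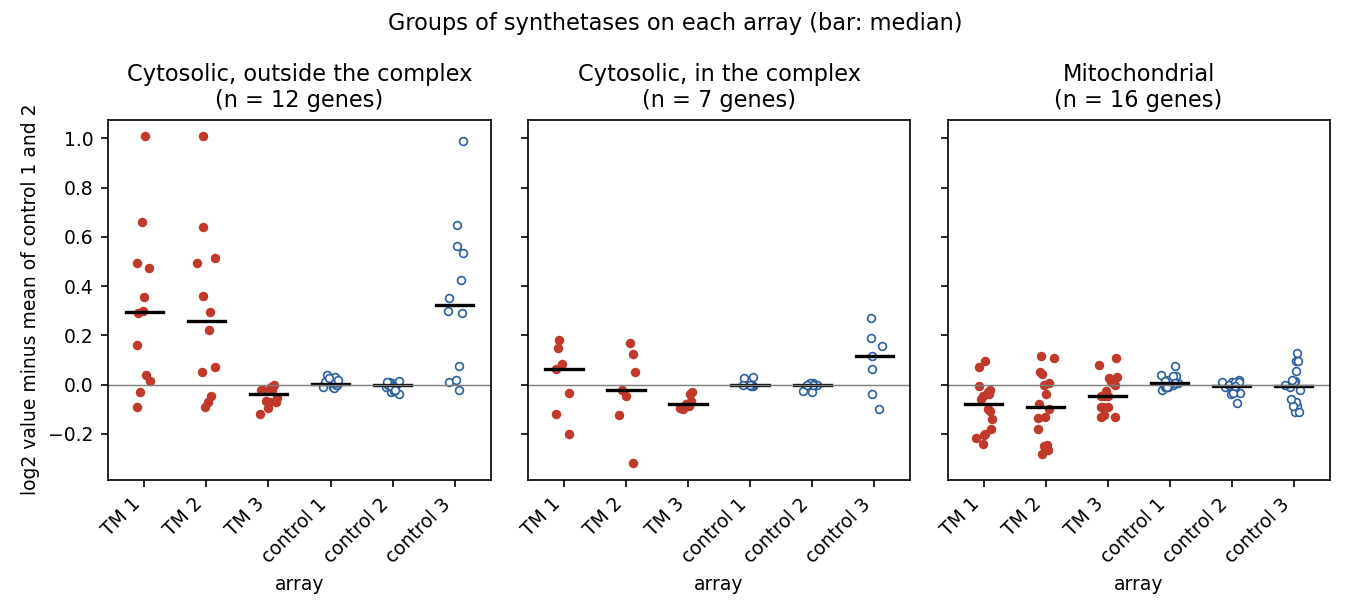
Log2 value of each gene minus its mean in control 1 and 2 (y axis) on each array (x axis, TM arrays in filled red and control arrays in open blue), for cytosolic enzymes outside the multisynthetase complex, cytosolic enzymes in it, and mitochondrial enzymes, with the median as a bar. The median of the 12 enzymes outside the complex was 0.29 and 0.26 in TM 1 and 2 and 0.33 in control 3, and -0.04 in TM 3.

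Within the cytosolic set, the genes called in replicates 1 and 2 were all enzymes outside the multisynthetase complex. Of these 12 enzymes 4 rose, 0 fell and 8 did not pass, where 0.546% of all clusters were higher and 0.675% lower. Their median log2 fold change was 0.29, with a range from -0.09 to 1.01. Of the 7 complex enzymes (EPRS1, IARS1, KARS1, LARS1, MARS1, QARS1 and RARS1) 0 rose and 0 fell, with a median of 0.02 and a range from -0.26 to 0.17, and 2 had an unadjusted p under 0.05, a share near the 26.9% of all clusters. Over all 6 arrays 0 enzymes passed in either group, with medians of 0.05 outside the complex and -0.04 in it. The difference between these groups was not tested, since the members were chosen with results known. By structural class, the 2 folds that synthetases use, 2 of 10 class I enzymes and 2 of 9 class II enzymes rose in replicates 1 and 2. Both stand against the same 0.546% of all clusters.

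The enzyme of the complex with the highest change was MARS1, the methionyl-tRNA synthetase, which read 9.68, 9.67 and 9.46 on the TM arrays and 9.50, 9.50 and 9.77 on the control arrays (log2 fold change 0.17 in replicates 1 and 2, adjusted p = 0.144 from limma). RARS1, the arginyl-tRNA synthetase, was the lowest cytosolic gene, at 9.76, 9.64 and 9.86 with TM and 9.99, 9.93 and 9.86 in control (log2 fold change -0.26, standard error 0.07, adjusted p = 0.106 from limma). In RARS1 the TM arrays were the lower ones and TM 3 and control 3 met at 9.86. LARS1, the leucyl-tRNA synthetase, was below the controls on all 3 TM arrays, at 9.32, 9.23 and 9.27 with TM and 9.35, 9.36 and 9.42 in control, a log2 fold change of -0.08 that did not pass (adjusted p = 0.437 from limma). IARS1, the isoleucyl-tRNA synthetase, was at 10.72, 10.62 and 10.49 with TM and at 10.57, 10.57 and 10.76 in control, and here TM 1, TM 2 and control 3 were again the high arrays (log2 fold change 0.10, adjusted p = 0.371 from limma).

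YARS1, the tyrosyl-tRNA synthetase, read 9.45, 9.37 and 9.13 with TM and 9.14, 9.16 and 9.50 in control, with a log2 fold change of 0.26 in replicates 1 and 2 (adjusted p = 0.0872 from limma). NARS1, the asparaginyl-tRNA synthetase, read 10.78, 10.72 and 10.67 with TM and 10.76, 10.77 and 10.84 in control, with overlapping groups and a log2 fold change of -0.02. The remaining cytosolic genes were TARS1, QARS1, VARS1, EPRS1 and HARS1, for threonine, glutamine, valine, glutamate with proline, and histidine, with log2 fold changes from -0.06 for HARS1 to 0.11 for TARS1, and none passed. VARS1 is listed on 7 clusters, copies on alternative haplotypes among them, with log2 fold changes of 0.06 to 0.10 in replicates 1 and 2.

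**Figure D3:**
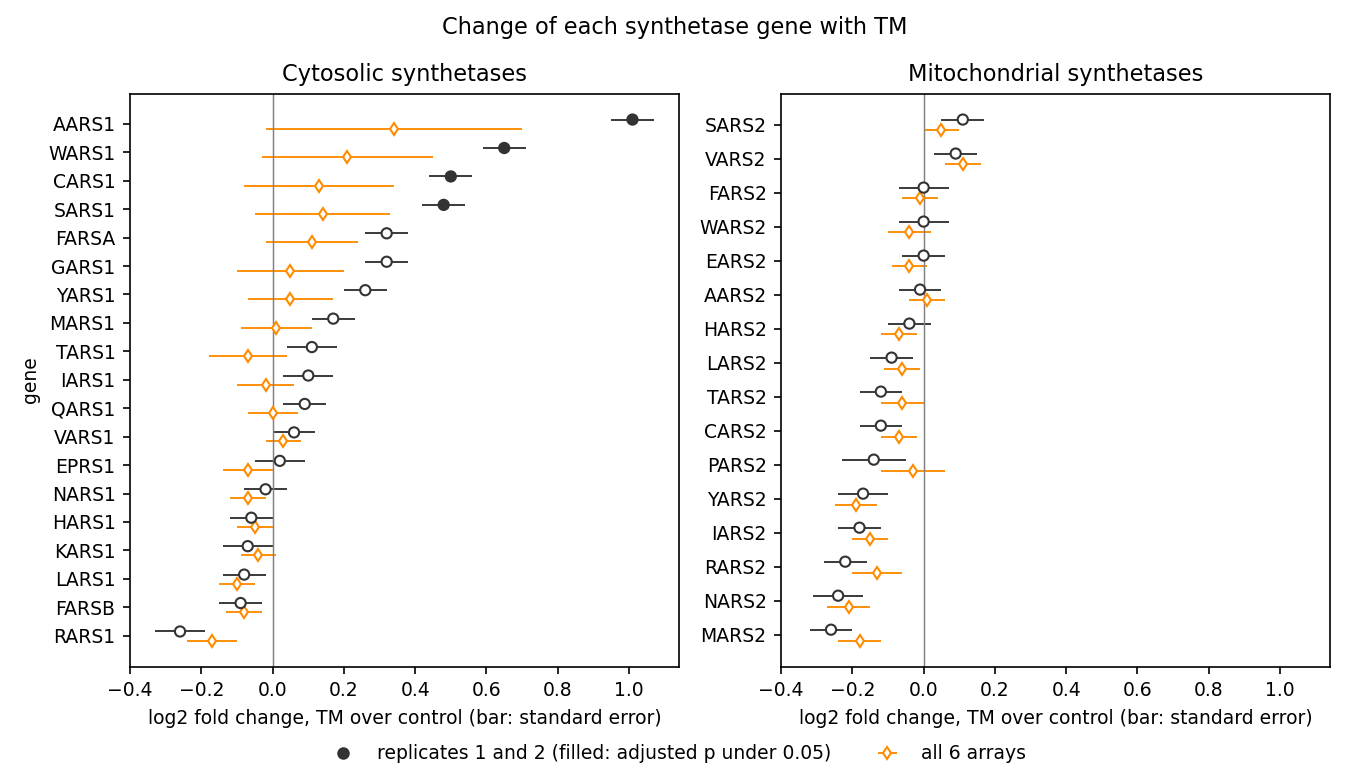
Log2 fold change, TM over control (x axis), of each cytosolic (left) and mitochondrial (right) synthetase with its standard error from limma, in replicates 1 and 2 (circles, filled at an adjusted p under 0.05) and with all 6 arrays (diamonds). Filled circles stand at 1.01, 0.65, 0.50 and 0.48 for AARS1, WARS1, CARS1 and SARS1, with no filled circle among the mitochondrial genes.

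The mitochondrial synthetases lay on the lower side, by small steps that did not pass the test. In RNA of whole cultures, less of an RNA in each cell and a smaller share of cells that hold it cannot be told apart. MARS2, the mitochondrial methionyl-tRNA synthetase, was at 7.67, 7.63 and 7.78 with TM and at 7.90, 7.92 and 7.80 in control, so that each TM array was below each control array. Its log2 fold change was -0.26 in replicates 1 and 2 (standard error 0.06, adjusted p = 0.0823 from limma) and -0.18 over all 6 arrays (standard error 0.06, adjusted p = 0.188 from limma). NARS2, the asparaginyl enzyme, was at 7.41, 7.36 and 7.50 with TM and at 7.70, 7.55 and 7.64 in control. Its log2 fold change was -0.24 (adjusted p = 0.127 from limma in replicates 1 and 2) and -0.21 over all 6 arrays (adjusted p = 0.168 from limma). Here too the TM arrays were the 3 lowest.

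IARS2, the isoleucyl enzyme, was at 9.27, 9.27 and 9.36 with TM and at 9.46, 9.44 and 9.44 in control. Over all 6 arrays IARS2 had a log2 fold change of -0.15 (limma, standard error 0.05, adjusted p = 0.194). YARS2, the tyrosyl enzyme, was at 7.29, 7.36 and 7.40 with TM and at 7.53, 7.45 and 7.62 in control. That of YARS2 over all 6 arrays was -0.19 (limma, standard error 0.06, adjusted p = 0.186). In both genes the labelled groups did not overlap, with TM lower, and the split of DDIT3 and HSPA5 was not seen. RARS2, the arginyl enzyme, was at 9.20, 9.16 and 9.36 with TM and at 9.41, 9.40 and 9.32 in control, with overlapping groups and a log2 fold change of -0.22 in replicates 1 and 2 (adjusted p = 0.101 from limma).

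Counted by arrays alone, all 3 TM arrays lay below all 3 control arrays in 5 of 16 mitochondrial synthetases (MARS2, NARS2, IARS2, YARS2 and HARS2) and in 3 of 19 cytosolic ones (HARS1, LARS1 and FARSB), against 7.49% of all clusters. TM lay wholly above control in 1 mitochondrial gene (VARS2) and 0 cytosolic genes, against 20.5% of all clusters. By mean array value the median percentile among all clusters was 97.9 for cytosolic and 81.9 for mitochondrial genes. No synthetase was below 75.1, so most clusters lie lower than the members, and shares at a like level were not computed. The counts without overlap moved with scaling. After quantile normalization TM was below in 5 mitochondrial and 0 cytosolic genes, and after centring on the array median in 12 mitochondrial and 6 cytosolic genes, while the share of all clusters with TM below was 10% and 18.4% under these scalings. The median of the mitochondrial list was below 0 under each of the 3 scalings.

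AARS2, the mitochondrial alanyl enzyme, was at 7.45, 7.47 and 7.50 with TM and at 7.46, 7.48 and 7.45 in control, and all 6 arrays were within 0.05 of each other. WARS2, the tryptophanyl enzyme, was at 7.69, 7.78 and 7.69 with TM and at 7.77, 7.70 and 7.83 in control. CARS2, the cysteinyl enzyme, was at 7.97, 8.01 and 8.02 with TM and at 8.13, 8.09 and 8.00 in control. The groups overlapped in all 3 genes, with log2 fold changes in replicates 1 and 2 of -0.01 for AARS2, 0.00 for WARS2 and -0.12 for CARS2. SARS2, the seryl enzyme, was at 7.67, 7.69 and 7.60 with TM and at 7.58, 7.57 and 7.67 in control, a log2 fold change of 0.11 that did not pass (adjusted p = 0.286 from limma) and was the highest of the mitochondrial genes in replicates 1 and 2, and 1 further cluster that names SARS2 with FBXO17 was at 0.06. FARS2, the phenylalanyl enzyme of mitochondria, was at 8.24, 8.35 and 8.30 with TM and at 8.29, 8.31 and 8.32 in control. VARS2, the valyl enzyme, was above control on all 3 TM arrays, at 7.10, 7.14 and 7.11 with TM and at 7.02, 7.04 and 6.97 in control, and 5 further clusters that name VARS2 together with a second symbol had log2 fold changes of 0.08 to 0.10. The other mitochondrial genes (EARS2, HARS2, LARS2, TARS2 and PARS2) had log2 fold changes from -0.14 to 0.00 in replicates 1 and 2.

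**Figure D4:**
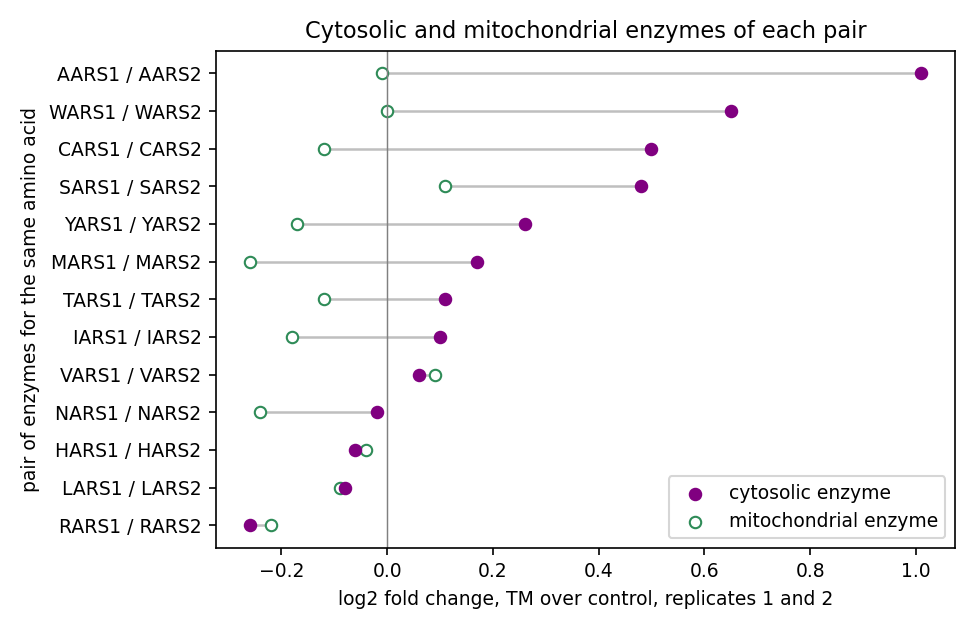
Log2 fold change in replicates 1 and 2, TM over control (x axis), of the cytosolic (filled) and mitochondrial (open) enzyme for each of 13 amino acids with 1 gene in each compartment. AARS1 and AARS2 stand 1.02 apart, and RARS1 and RARS2 stand 0.04 apart.

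For 13 amino acids the lists hold a cytosolic and a mitochondrial enzyme of the same symbol stem. The change of the cytosolic enzyme was the higher one in 10 of the 13 pairs in replicates 1 and 2, with a median difference of 0.28 on the log2 scale. With all 6 arrays it was the higher one in 9 pairs, with a median difference of 0.12. The 10 include leucine at a difference of 0.01, and the 9 include histidine at 0.01. In replicates 1 and 2 histidine, arginine and valine were at -0.02, -0.04 and -0.04. Differences are given with no test, and only changes are set side by side, since levels of different probes cannot be compared. In replicates 1 and 2 the difference was 1.02 for alanine, 0.64 for tryptophan and 0.62 for cysteine. For methionine it was 0.44, where MARS1 was at a log2 fold change of 0.17 and MARS2 at -0.26, and for tyrosine it was 0.43, where YARS1 was at 0.26 and YARS2 at -0.17. Arginine was unlike these, since RARS1 and RARS2 were both lower, with log2 fold changes of -0.26 and -0.22. The histidine enzymes HARS1 and HARS2, whose RefSeq starts lie 85 bases apart on chromosome 5 and face away from each other, had log2 fold changes of -0.06 and -0.04.

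The promoters of the cytosolic enzymes were searched for the C/EBP-ATF composite element, the usual site of ATF4 with its C/EBP partners, because the paper discusses ATF4 as a regulator under ER stress. RefSeq promoters (GRCh38.p14, 250 bases before to 50 after the start) were matched for 34 of the 39 members, and both strands were read for TGATGNAA. It was present in at least 1 window of 7 of 16 cytosolic genes (AARS1, CARS1, GARS1, IARS1, MARS1, NARS1 and TARS1). The same held for 1 of 14 mitochondrial genes (YARS2) and 0 of 4 partner factors. For CARS1, GARS1 and TARS1 a second window did not hold it. Of all 35116 windows, which belong to 27305 genes, 3.62% held it, so that share is per window and not per gene. These stretches of 46 bases are shown because they set the rising genes AARS1 and CARS1 beside genes that carry the same letters and did not pass. The capitals mark the element, which reads on the opposite strand in 6 of the 7 cytosolic genes:
AARS1: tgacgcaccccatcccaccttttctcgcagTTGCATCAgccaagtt
CARS1: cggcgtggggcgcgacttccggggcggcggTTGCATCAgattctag
MARS1: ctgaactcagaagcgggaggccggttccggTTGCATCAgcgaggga
IARS1: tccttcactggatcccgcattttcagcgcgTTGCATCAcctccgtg
TARS1: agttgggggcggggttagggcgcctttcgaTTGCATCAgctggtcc
NARS1: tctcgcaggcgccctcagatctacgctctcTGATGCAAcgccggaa
GARS1: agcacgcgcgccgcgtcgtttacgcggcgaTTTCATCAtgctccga
YARS2: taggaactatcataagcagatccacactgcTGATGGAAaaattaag

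The AARS1 stretch is chr16:70289678-70289723 on the minus strand and the CARS1 stretch is chr11:3057410-3057455 on the minus strand. Those of MARS1 (chr12:57488034-57488079) and TARS1 (chr5:33440937-33440982) are on the plus strand, as is that of GARS1 (chr7:30594815-30594860). The IARS1 (chr9:92293695-92293740), NARS1 (chr18:57621807-57621852) and YARS2 (chr12:32756079-32756124) stretches are on the minus strand. In 6 of the 7 cytosolic genes the open base is C, so that the element is TGATGCAA, a form chosen after the matches were seen and held by 0.866% of all windows. GARS1 has A and YARS2 has G at the open base. Counted from the start, the first base of the match lies at -187 in AARS1, and it lies between -33 and 15 in the other cytosolic genes.

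Changes of genes with and without a match overlapped, and the difference between them was not tested. In replicates 1 and 2 the 7 cytosolic genes with a match had log2 fold changes from -0.02 for NARS1 to 1.01 for AARS1, with a median of 0.17, and the 9 without one had changes from -0.26 for RARS1 to 0.65 for WARS1, with a median of 0.02. WARS1, SARS1 and FARSA have no TGATGNAA in their windows, which says only that the letters are not in these bases. Neither the cyclic AMP response element (TGACGTCA, 1.85% of all windows) nor the ER stress response element (0.0769% of all windows) was present in a synthetase promoter, and the first of these was present in the promoter of AIMP2.

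Of the partner factors, XPOT, the exportin that carries tRNA out of the nucleus, was at 10.79, 10.73 and 10.41 with TM and at 10.53, 10.48 and 10.81 in control. TM 1, TM 2 and control 3 were the high arrays, as for AARS1, and the log2 fold change was 0.26 in replicates 1 and 2 (standard error 0.06, adjusted p = 0.0891 from limma) and 0.04 over all 6 arrays. AIMP1, a scaffold of the multisynthetase complex, was at 9.13, 9.11 and 9.05 with TM and at 9.15, 9.13 and 9.21 in control. Its log2 fold change was -0.02 in replicates 1 and 2 (adjusted p = 0.851 from limma), near the median of 0.02 of the complex enzymes.

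Beside the synthetases, 25 targets of ATF4 and CHOP were read from the same fit of replicates 1 and 2. Of these 15 rose and 0 fell, with a median log2 fold change of 0.495. Over all clusters 0.546% rose and 0.675% fell in that fit. This list and the 12 ER chaperones and folding enzymes, of which 10 rose with a median of 1.07, hold the genes by which replicate 3 was set aside, so their counts stand as no separate support. On the mitochondrial side 11 of 13 listed translation factors were measured, and 0 rose and 0 fell, with a median of -0.0719 in replicates 1 and 2 and of -0.098 over all 6 arrays, where all 11 were below 0. The smallest p values among them in replicates 1 and 2 were those of MTRF1, a mitochondrial release factor, at a log2 fold change of -0.16 (adjusted p = 0.157 from limma), and GATB, a subunit of the amidotransferase that completes mitochondrial glutaminyl-tRNA, at -0.13 (adjusted p = 0.225 from limma). All 3 TM arrays lay below all 3 control arrays in 6 of these 11 genes, against 7.49% of all clusters. This count was 4 after quantile normalization and 7 after centring, against 10% and 18.4% of all clusters. As deposited, TM also lay below in 3 of 7 genes of cytosolic elongation, release and recycling and in 4 of 14 tRNA processing genes. It lay wholly above in 0 of the former and 1 of the latter, against 20.5% of all clusters.

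**Figure D5:**
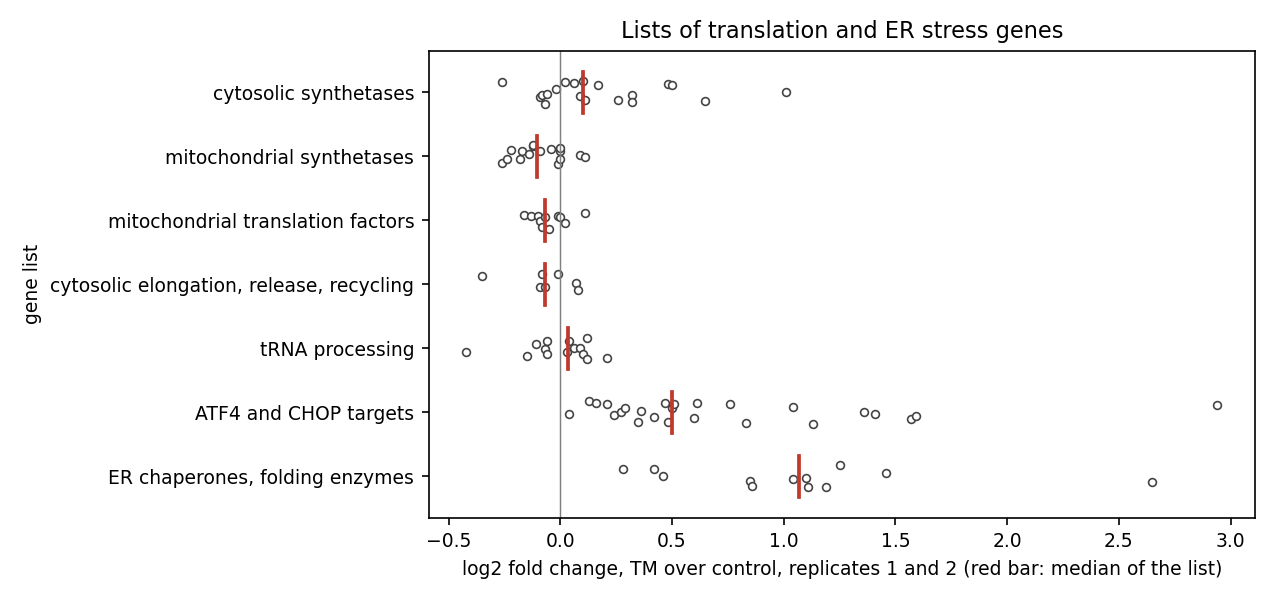
Log2 fold change in replicates 1 and 2, TM over control (x axis), of each gene (open circles) of 7 lists, with the median of each list as a red bar. Medians are 0.0999 for cytosolic synthetases, -0.108 for mitochondrial synthetases, -0.0719 for mitochondrial translation factors, 0.495 for ATF4 and CHOP targets and 1.07 for ER chaperones and folding enzymes.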

How the data were processed

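The authors deposited 1 log2 expression value per transcript cluster and array from GeneChip HTA 2.0 arrays, already summarised and normalized, and the submitters' processing notes name MAS5. For background correction, probe set version and build, the sources used here give nothing. All 6 columns matched a sample, and 0 columns were left out. Values were used as deposited, with no filter. TM was compared with control by limma 3.58.1 in R 4.3.3 (lmFit, eBayes, two-sided, Benjamini-Hochberg over all clusters, threshold 0.05), with all 6 arrays and with replicates 1 and 2. Steps were tested on simulated data. Clusters with several symbols were kept in the fit and stood for no member. The small number of arrays limits precision.

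The members, lists and tests were chosen with earlier results of these data known. Values by array are given for called members, the 6 cytosolic, 4 mitochondrial and all partner genes with the largest changes in replicates 1 and 2, and their counterparts. They are also given for DDIT3 and HSPA5, and for the 2 genes of smallest p in the lists of cytosolic elongation and of tRNA processing. For the 2 such genes of mitochondrial translation only fold changes are given. FARSB, KARS1, LARS1, YARS1, YARS2 and VARS2 were added after their values were seen. Replicate numbers were not used to pair the arrays in the main fits. Alternatives were quantile normalization, median centring, the upper part of clusters by mean, trend and robust moderation, the replicate block, averaging a gene's clusters, an unadjusted p under 0.05 with a fold change of 1.2 (the thresholds of the paper) and leaving out arrays. Figures used matplotlib 3.10.9 in Python 3.11.15.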

Additional observations from a re-analysis of the deposited data

How the results depend on the processing

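The cytosolic calls in replicates 1 and 2 depended on the setting. The count of 4 was also 4 with quantile normalization, with centring and with a gene's clusters averaged. By an unadjusted p under 0.05 with a fold change of at least 1.2 it was 6, with 0 mitochondrial genes and 9828 clusters. It was 7 with trend and robust moderation, and 7 when only clusters at or above the median mean were tested. FARSA, GARS1 and YARS1 also passed in both. With the first setting 4571 of 67528 clusters passed, against 825 as reported. With the second, 5616 passed among only the clusters kept for that fit. With these same settings 2 mitochondrial genes passed, both lower (MARS2 and RARS2), and 1 partner factor (XPOT). Leaving out 1 array leaves 1 array in its group, so no count of calls is given for it. With a block for the replicate number the count was 0 and 28 clusters passed in all. The numbers share no known culture or day, so the block is only an alternative. Deviations of same-numbered arrays had correlations of -0.177, -0.311 and -0.534 over all 6 arrays and -0.0662 in replicates 1 and 2. TM 3 and control 3 stood apart in opposite directions in ER stress genes. The correlations over all 6 arrays therefore cannot show whether arrays were paired. For all 6 arrays the count of 0 became 4 without both replicate 3 arrays.

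The cytosolic median in replicates 1 and 2 was 0.0583 with centring, 0.161 with quantile normalization and 0.073 to 0.149 with 1 array left out. The mitochondrial median was -0.15 with centring, -0.0937 with quantile normalization and -0.103 to -0.0806 with 1 array left out. Over all 6 arrays the mitochondrial median was -0.132 with centring, -0.108 without both replicate 3 arrays and -0.0881 to -0.0436 with 1 array left out.

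No called gene changed direction. Of the named genes that were not called, some crossed 0. In replicates 1 and 2 quantile normalization put NARS1 at 0.05 and AIMP1 at 0.01, and leaving out 1 array put NARS1 between -0.04 and 0.01. Over all 6 arrays quantile normalization put AARS2 at -0.01, FARS2 at 0.01 and IARS1 at 0.03. Centring put AARS2 at -0.06, SARS2 at -0.02, MARS1 at -0.06, XPOT at -0.03 and GARS1 at -0.02. Without both replicate 3 arrays AARS2 was at -0.01 and IARS1 at 0.10. With 1 array left out, FARS2 lay between -0.03 and 0.02, IARS1 between -0.07 and 0.04, MARS1 between -0.03 and 0.10, XPOT between -0.03 and 0.16, and GARS1 between -0.03 and 0.20. With 2 or 3 arrays per group the standard error reached 0.09 among mitochondrial genes in replicates 1 and 2 and 0.36 among cytosolic genes over all 6 arrays, and a p that missed the threshold does not show that the groups were alike.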

Other observations

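Other steps of cytosolic translation and tRNA supply gave the following values. Of 9 genes of cytosolic elongation, release and ribosome recycling 7 were measured, and 0 rose and 0 fell in replicates 1 and 2 in limma (1 with an unadjusted p under 0.05, against 26.9% of all clusters), with a median log2 fold change of -0.0741. ABCE1, which splits ribosomes after termination, was at 9.57, 9.53 and 9.77 with TM and at 9.92, 9.89 and 9.75 in control, a log2 fold change of -0.35 (standard error 0.06, adjusted p = 0.0605 from limma). TM 3 and control 3 of ABCE1 lay between the other arrays of both groups. ETF1, the release factor that reads stop codons, was at 9.18, 9.12 and 9.12 with TM and at 9.26, 9.22 and 9.30 in control (log2 fold change -0.09, adjusted p = 0.391 from limma).

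Of 18 tRNA processing genes 14 were measured, and 0 rose and 0 fell in replicates 1 and 2 (2 with an unadjusted p under 0.05, against 26.9% of all clusters), with a median log2 fold change of 0.0364. TRMT10C, a subunit of the mitochondrial ribonuclease that trims the leading end of tRNAs, was at 7.31, 7.22 and 7.47 with TM and at 7.68, 7.70 and 7.40 in control, a log2 fold change of -0.42 (standard error 0.07, adjusted p = 0.0538 from limma), with overlapping groups. ELAC1, which cleaves the trailing end of tRNAs, was at 6.78, 6.81 and 6.51 with TM and at 6.55, 6.61 and 6.87 in control, a log2 fold change of 0.21 (adjusted p = 0.117 from limma), and TM 1, TM 2 and control 3 were its 3 highest arrays.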
